A study of Mus musculus with 8 samples.

Results

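The genes described here are the 34 meiotic and homologous recombination genes named in a list of that pathway, taken by mouse symbol from the 54838 gene entries of the count table. All 34 were found once each. RNA was sequenced from oocytes of C57BL/6 mice at 2 stages, the germinal vesicle (GV) stage, when the oocyte is arrested in meiotic prophase, and metaphase II (MII), when it has matured and awaits fertilisation. The control oocytes are labelled wildtype. The knockout oocytes lack BAF250a, the protein of Arid1a, a subunit of the BAF chromatin remodelling complex, and were made with a Gdf9-cre transgene, which drives Cre from an oocyte promoter that is active from early follicle stages. Each of the 4 groups (GV control, GV knockout, MII control and MII knockout) has 2 libraries, made from 5 to 10 oocytes each. The labels do not give the age of the mice, the part of Arid1a that was deleted, whether the controls carried floxed alleles or Cre, or whether the libraries of a group came from separate animals, so a p-value measures the spread between these libraries only.

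In mammals, meiotic recombination opens with DNA double-strand breaks made by SPO11 at sites marked by PRDM9. The broken ends are resected, coated by strand exchange proteins such as DMC1 with the help of BRCA2 and of filament accessory proteins such as RAD51B and XRCC3, and paired with the homologous chromosome. A part of the resulting joint molecules is protected by the MSH4 and MSH5 pair and cut into crossovers with the help of MLH3 and EXO1, while others are taken apart by BLM with TOP3A or cut by MUS81, SLX4-bound nucleases and GEN1. In females these events take place in the fetal ovary, before follicles form and before a Gdf9 promoter is active. A later oocyte keeps much of the machinery for DNA repair, and many of its messenger RNAs are degraded or translated during maturation to MII.

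The libraries held 19587421 to 33289150 reads in genes. The targeted gene, Arid1a, was at 380 and 458 CPM (read counts scaled to a common library size) in the GV control libraries and at 4.87 and 12.9 in the GV knockout libraries. At MII it was at 1617 and 1293 CPM in control and at 33 and 21.7 in knockout libraries, so both labels held. CPM of single genes is relative to the reads in tested genes after TMM scaling, while the marker sums given next are per all reads in genes, without TMM scaling. For single genes, 3 reads in a library, taken as the limit that a count of 0 allows, were worth 0.0894 to 0.17 CPM (counting error only). All 12 oocyte markers were detected in every library. The summed level of 16 granulosa and cumulus cell markers was 163 and 129 CPM in GV control, 66.6 and 87.9 in GV knockout, 165 and 138 in MII control, and 126 and 103 in MII knockout libraries. In each GV library 4 of these 16 markers had 0 reads. At MII the number with 0 reads was 2 for control b, 5 for control a, 6 for knockout 1 and 9 for knockout 2. Tnfaip6, a cumulus marker, was at 0 in 6 of the 8 libraries, all but MII control b and MII knockout 2. The part of the difference in these marker sums in the results was not tested. The 12 blood and immune markers summed to 6.36 to 9.09 CPM in 7 libraries and to 72.1 in MII control library b. In that library 5 of the 12 were at 0 reads (Ptprc, Lyz2, Csf1r, Hbb-bs and Hba-a1). In each of the other 7 libraries 7 to 9 were at 0, and Ptprc and Lyz2 were at 0 in all 8. Mitochondrial transcripts made up 0.105 to 0.446% of the reads in genes at GV and 3.03 to 6.93% at MII.

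Of the 34 genes, 27 had a mean of at least 1 CPM in GV control oocytes, 28 in GV knockout, 24 in MII control and 26 in MII knockout oocytes. Spo11 and Spata22, a partner of MEIOB in strand exchange, had 0 reads in all 8 libraries. For Spata22, 80.5% of the exon bases are shared with a second annotated gene, Gm49340, which also had 0 reads, and reads in shared bases may not have been assigned to either. The other 32 passed the filter on low counts and were tested. Per kilobase of exon (RPKM, the CPM divided by the exon length in kilobases), the highest mean levels in GV control oocytes were those of Mus81 at 71.2, the nuclease subunit, Psmc3ip at 42.8, which encodes the HOP2 cofactor of DMC1, Xrcc3 at 29.9, a filament accessory gene, and Mnd1 at 19.3, the partner of HOP2. In MII control oocytes the order was Brca2 at 26.1 RPKM, Palb2 at 13.8, which links BRCA1 to BRCA2, Msh4 at 12.7, Tex11 at 10.4, a crossover factor, and Brca1 at 10.2. Several genes of break formation and strand exchange were low at both stages. Prdm9 and Mei1 did not exceed 0.328 RPKM in any group mean, and Dmc1, the meiosis-specific recombinase, lay between 0.386 and 1.07 RPKM.

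**Figure D1:**
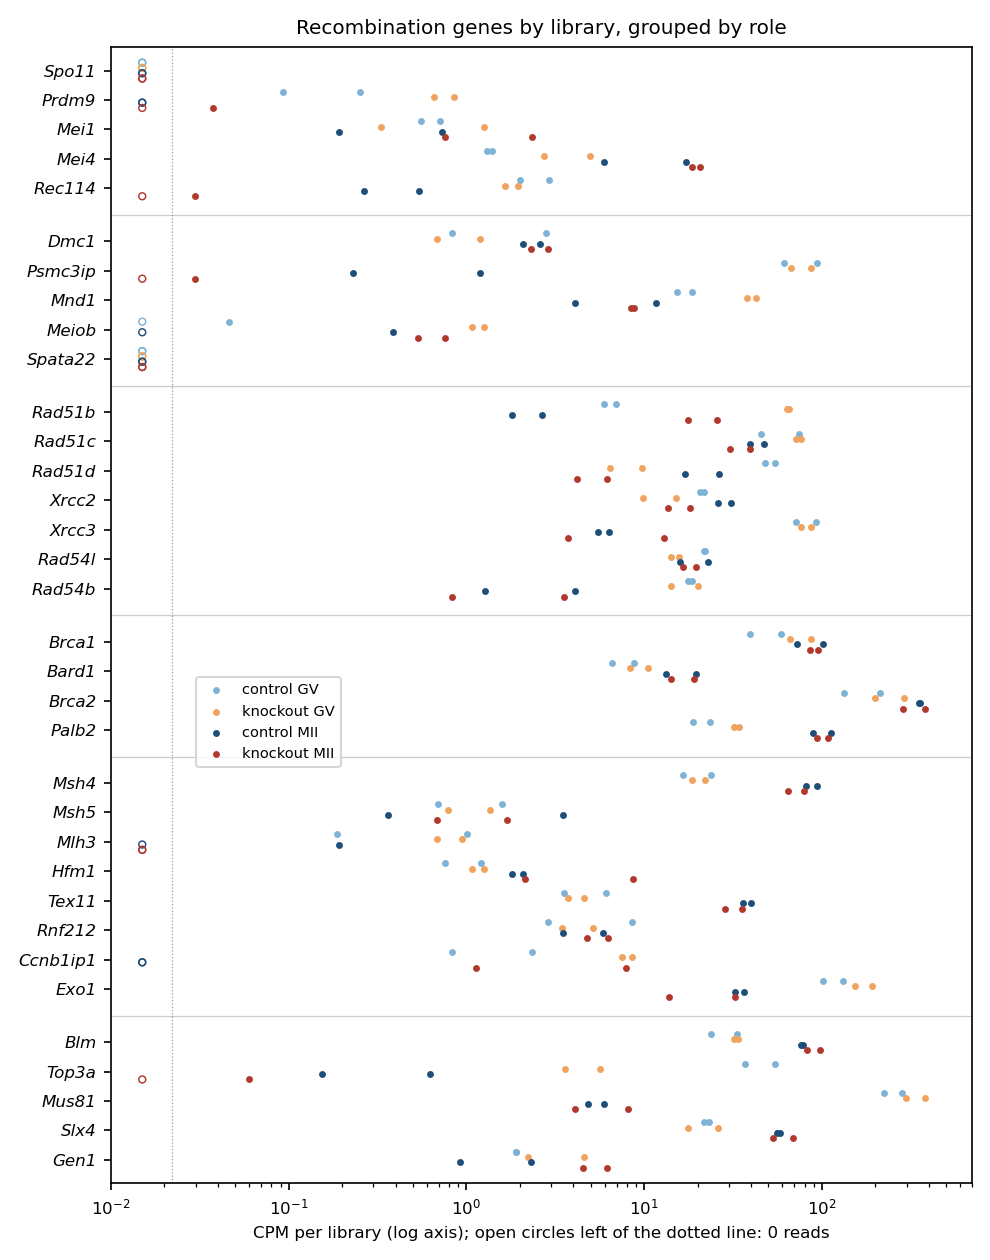
CPM of each of the 34 genes in each of the 8 libraries on a log axis, 1 point per library, with the 6 role groups separated by lines (from the top: break formation, meiotic strand exchange, filament accessory and RAD54 genes, BRCA mediators, crossover, dissolution and resolution). Open circles left of the dotted line are libraries with 0 reads. Spo11 and Spata22 have open circles only. Rad51b and Rad51d show separated control and knockout points at both stages, as do Mei4, Rec114, Meiob, Xrcc2, Ccnb1ip1, Top3a and Gen1.

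The knockout was compared with control at each stage. At GV, 1 of the 32 tested genes was higher in knockout oocytes, Rad51b, where 0.597% of all 15572 tested genes were higher, and 2 were lower, Rad51d and Top3a, where 0.392% of all were lower (edgeR's quasi-likelihood F-test, adjusted p under 0.05). At MII, 2 were higher, Rad51b and Ccnb1ip1, against 1.7% of all tested genes, and 2 were lower, Rad51d and Psmc3ip, against 3.44%. The share called in either direction was 9.38% of the tested members at GV, beside 0.989% of all tested genes, and 12.5% at MII, beside 5.14%. The median log2 difference of the 32 genes was 0.27 at GV, where that of all genes was -0.00, and 0.04 at MII, where that of all genes was -0.01. The knockout and control libraries did not overlap for 16 of 32 genes at each stage, and they did not overlap for 46.4% of all tested genes at each stage. At an unadjusted p under 0.05 there were 8 of the 32 at each stage, 10.8% of all genes at GV and 22.2% at MII. Library RNA is pooled from a few oocytes, and fewer copies per cell and fewer cells carrying a transcript cannot be told apart.

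Among the 7 filament accessory and RAD54 genes (Rad51b, Rad51c, Rad51d, Xrcc2, Xrcc3, Rad54l and Rad54b), Rad51b was higher and Rad51d lower at both stages. Rad51b and Rad51d encode subunits of one complex (RAD51B, RAD51C, RAD51D and XRCC2) that acts on single-stranded DNA in homologous recombination. Rad51b lies on chr12:79297282-79814690, plus strand (mm10, GENCODE M21). It was at 6.96 and 5.95 CPM in the GV control libraries and at 63.7 and 65 CPM in the GV knockout libraries. Every knockout library exceeded both controls. The log2 difference was 3.32 ± 0.39 (SE, n = 2 libraries a group), a 9.96-fold higher level (edgeR's test, adjusted p = 0.00298). Without GV control library 1 the log2 difference was 3.44 (adjusted p = 0.0562), and without GV control library 2 it was 3.21 (adjusted p = 0.0659). At MII, Rad51b was at 1.81 and 2.68 CPM in control and at 25.7 and 17.7 CPM in knockout libraries, again without overlap. The log2 difference was 3.27 ± 0.39, 9.66-fold (edgeR's test, adjusted p = 0.00245), and leaving out any 1 of the 8 libraries kept the call. The exons of Rad51b share no base with another annotated gene. Of the 10 other tested genes within 400 kb on each side, 0 were called at GV and 2 at MII, Tmem229b and Plekhh1. Among all tested genes, 0.989% were called at GV and 5.14% at MII. For the neighbours of this and the other called genes, the direction of change is not given here.

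The promoter windows of 3 of the 5 genes called between genotypes are shown because these genes differed between the genotypes and BAF250a acts on chromatin; they are the 250 bases upstream of a RefSeq gene start (GRCm38.p6), 5′ to 3′ on the gene's strand, with each CCAAT or its reverse complement ATTGG in capitals. The Rad51b window printed is the upstream one of 2 in the RefSeq table, chr12:79297032-79297281 (plus strand). That of Ccnb1ip1, a gene described further on, is chr14:50795729-50795978 (minus strand), and lies at a RefSeq start inside the GENCODE span of the gene, downstream of its annotated 5′ end. That of Psmc3ip is chr11:101095436-101095685 (minus strand).
Rad51b: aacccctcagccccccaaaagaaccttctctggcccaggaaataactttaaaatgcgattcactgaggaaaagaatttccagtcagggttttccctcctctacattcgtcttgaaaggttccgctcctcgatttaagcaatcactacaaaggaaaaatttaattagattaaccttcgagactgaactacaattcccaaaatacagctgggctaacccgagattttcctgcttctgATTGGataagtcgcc
Ccnb1ip1: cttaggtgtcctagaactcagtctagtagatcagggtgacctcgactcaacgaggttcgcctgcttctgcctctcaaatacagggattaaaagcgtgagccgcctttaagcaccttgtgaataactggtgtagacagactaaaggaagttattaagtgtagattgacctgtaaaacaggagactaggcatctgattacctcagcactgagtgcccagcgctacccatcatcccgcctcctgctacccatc
Psmc3ip: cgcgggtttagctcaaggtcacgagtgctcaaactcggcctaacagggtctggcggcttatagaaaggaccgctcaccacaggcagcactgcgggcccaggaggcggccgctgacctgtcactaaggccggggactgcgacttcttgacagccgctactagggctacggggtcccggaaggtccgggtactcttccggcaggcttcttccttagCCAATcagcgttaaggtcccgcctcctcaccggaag
Windows were read for 26 of the 34 genes (31 windows, since some genes have more than 1 start) and for all 32851 windows of the table. Searched on both strands, CCAAT matched 17 of the 31 windows of these genes (54.8%) and 33.8% of all windows. The GC box letters GGGCGG matched 48.4% of them and 32.7% of all, the E-box letters CACGTG 6.45% and 6.02%, and the NRF1 core letters GCATGCGC 12.9% (4 windows, of Hfm1, Mlh3 and Rnf212) and 2.26%. Of the 3 windows printed, those of Rad51b and Psmc3ip hold the CCAAT letters and that of Ccnb1ip1 matches none of the 4 motifs. These are descriptions of letters in the windows.

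Rad51d, on chr11:82876434-82890614, minus strand, was at 54.2 and 47.6 CPM in GV control and at 6.4 and 9.75 CPM in GV knockout libraries. Both knockout libraries were lower than both controls. It was lower by 6.29-fold (log2 difference -2.65 ± 0.42, edgeR's adjusted p = 0.0154). The call was lost without any 1 of the 4 GV libraries, with adjusted p of 0.143 without control library 1, 0.109 without control library 2, 0.163 without knockout library 1 and 0.0638 without knockout library 2. At MII, Rad51d was at 26.5 and 16.9 CPM in control and at 4.17 and 6.19 CPM in knockout libraries, again lower in both knockout libraries. The log2 difference was -2.07 ± 0.41 (edgeR's adjusted p = 0.0216). There the adjusted p was 0.0561 without GV control library 1, 0.0532 without GV control library 2, 0.0707 without MII control library a and 0.0718 without MII knockout library 1. Rad51d shares no exon base with another gene. Of 8 tested neighbours within 400 kb on each side, 0 were called at GV and 1, Rffl, at MII. This stands beside 0.989% and 5.14% of all tested genes.

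The other 5 genes of the group did not pass at either stage. Rad51c, which is in the same complex, had log2 differences of 0.31 ± 0.32 at GV and -0.32 ± 0.32 at MII. Xrcc2, also in the complex, had -0.75 ± 0.38 (adjusted p = 0.537) and -0.84 ± 0.37 (adjusted p = 0.221). Xrcc3 was at 92.8 and 71.7 CPM in GV control and at 76.1 and 86.7 in GV knockout libraries, which overlap, and its log2 difference was -0.01 ± 0.47 at GV and 0.50 ± 0.48 at MII. The RAD54 family translocases Rad54l and Rad54b lay between -0.54 and -0.07. Of the 7, the libraries of the genotypes were separate for 4 at each stage, beside 46.4% of all tested genes at each stage. Xrcc2 was among the 4, with 20.5 and 21.6 CPM in control and 9.91 and 15.1 CPM in knockout libraries at GV.

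**Figure D2:**
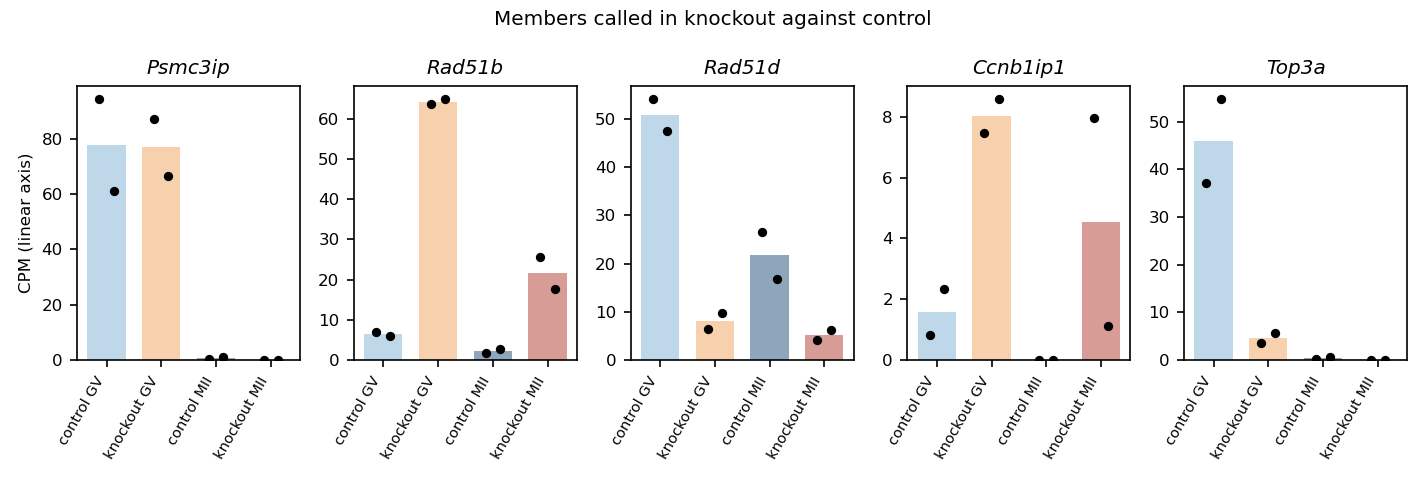
CPM per library, 1 point each, for the genes that passed the test between genotypes at GV or MII. Rad51b was higher and Rad51d lower in both knockout libraries at both stages, Top3a was lower at GV, and Ccnb1ip1 had 0 reads in both MII control libraries.

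Of the 5 dissolution and resolution genes, Top3a, the topoisomerase partner of BLM, was lower in knockout oocytes at GV. It lies on chr11:60740058-60777365, minus strand, and was at 37.2 and 54.8 CPM in GV control and at 3.57 and 5.62 CPM in GV knockout libraries, without overlap. The log2 difference was -3.32 ± 0.65 (edgeR's adjusted p = 0.0448). Leaving out any 1 of the 4 GV libraries took the adjusted p to 0.203 without control library 1, 0.389 without control library 2, 0.371 without knockout library 1 and 0.169 without knockout library 2. With library totals as the only scaling, under which the median of all genes was -0.27, the adjusted p was 0.0562. At MII, the controls held 4 and 19 reads of Top3a and the knockouts 2 and 0, a ratio of 12.3 in summed reads, scaled for depth (exact 95% interval 3.03 to 107, counting error only), and its log2 difference of -3.42 ± 1.02 did not pass (edgeR's adjusted p = 0.0851). It passed there by DESeq2 (adjusted p = 0.0287), without the filter on low counts (0.00497) and without MII control library a (-4.04, 0.0395). Without MII control library b the log2 difference was -2.00 (adjusted p = 0.375), without MII knockout library 2 it was -2.58 (0.253) and without MII knockout library 1 it was -6.26 (0.0909). MII control library b, with 19 of the Top3a reads, had the highest blood and immune marker sum (72.1 CPM), and the part of this was not tested. Of the 18 tested neighbours of Top3a within 400 kb on each side, 0 were called at either stage. This stands beside 0.989% of all tested genes at GV and 5.14% at MII. Blm, the helicase of the same complex, had log2 differences of 0.20 ± 0.28 at GV and 0.22 ± 0.28 at MII. Mus81 had 0.42 ± 0.34 and 0.17 ± 0.35, and the SLX4 scaffold and the GEN1 resolvase did not pass at either stage, though Gen1 was at 0.923 and 2.31 CPM in control and at 4.56 and 6.15 CPM in MII knockout libraries (log2 difference 1.72 ± 0.78, adjusted p = 0.226).

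Among the 8 crossover genes, Ccnb1ip1 was higher in MII knockout oocytes. It encodes HEI10, a ligase needed to turn recombination intermediates into crossovers, and lies on chr14:50789248-50807732, minus strand. At MII it had 0 reads in both control libraries and 267 and 30 reads in the knockout libraries, which were 7.95 and 1.13 CPM. Both knockout libraries were above both controls, and they differed from each other. With each control at the 3-read limit it was at least 42.4-fold higher (edgeR's adjusted p = 0.015, and called in all 8 leave-one-out fits). The bound was carried by 1 library: MII knockout library 1 alone gave at least 74.2-fold and library 2 alone at least 10.6-fold. At GV it was at 0.835 and 2.35 CPM in control and at 7.48 and 8.59 CPM in knockout libraries, without overlap, and the log2 difference of 2.33 ± 1.00 did not pass (adjusted p = 0.441). Its exons share 12.4% of their bases with Rpph1, which had 0 reads in all libraries. Of the 12 other tested genes within 400 kb on each side, 1 was called at GV, Ttc5, and 3 at MII, Parp2, Tep1 and Pnp2. This stands beside 0.989% of all tested genes at GV and 5.14% at MII.

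The other 7 crossover genes did not pass at either stage. Msh4, the most abundant of them per length at MII, was at 23.7 and 16.5 CPM in GV control and at 18.6 and 22 in GV knockout libraries, and at 94.1 and 81.7 against 79.2 and 64.5 at MII. Its log2 differences were 0.02 ± 0.30 at GV and -0.29 ± 0.30 at MII. Exo1, a nuclease with roles in resection and in crossing over, was at 132 and 102 CPM in control and at 192 and 154 CPM in GV knockout libraries, separate but not past the test (log2 difference 0.57 ± 0.38, adjusted p = 0.705). Tex11, a partner of MSH4-dependent crossovers, had -0.22 ± 0.40 and -0.24 ± 0.38. Msh5, Hfm1, Rnf212 and Mlh3 ranged from a log2 difference of -0.41 to 0.45 at GV, and none of the 4 passed at MII, where the controls held 5 and 0 reads of Mlh3 and the knockouts 0.

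The 5 genes of meiotic strand exchange held 1 call, Psmc3ip at MII. Its exons share 21.2% of their bases with Mlx, whose reads the counting could have mixed with it or set aside. Psmc3ip, on chr11:101091823-101095436, minus strand, was at 94.4 and 61.1 CPM in GV control and at 87.1 and 66.7 in GV knockout libraries, which overlap, with a log2 difference of -0.02 ± 0.51. At MII the controls held 6 and 36 of its reads and the knockouts 1 and 0. Both knockout libraries were below both controls (log2 difference -5.08 ± 1.09, edgeR's adjusted p = 0.0279). The ratio of summed reads, scaled for depth, was 44.8, with an exact 95% interval from 7.62 to 1812 (counting error only). The size rested on single libraries. MII control library b, with 36 of these reads, was also the library with the highest blood and immune marker sum (72.1 CPM). The part of this in the difference was not tested. The log2 difference was -3.38 without MII control library b (adjusted p = 0.124), -7.12 without MII knockout library 1 (0.0741), -4.33 without MII knockout library 2 (0.121) and -5.77 without MII control library a (0.00603), and without GV knockout library 1 it was -5.06 (0.0518). Of 30 tested neighbours within 400 kb on each side, 0 were called at GV and 4 at MII (Hsd17b1, Tubg1, Cntnap1 and Aoc2). This stands beside 0.989% of all tested genes at GV and 5.14% at MII. Mnd1, whose protein pairs with HOP2, was at 15.3 and 18.5 CPM in control and at 42.4 and 38.1 CPM in GV knockout libraries, separate, with a log2 difference of 1.25 ± 0.48 that did not pass (adjusted p = 0.344), and at MII 0.14 ± 0.48. Meiob, a DNA-binding protein of strand exchange, had 1 and 0 reads in GV control and 22 and 26 in GV knockout libraries (ratio 52.1, exact 95% interval 8.91 to 2099, log2 difference 5.41 ± 2.05, adjusted p = 0.338), so the libraries were separate and the test was not passed. Dmc1 overlapped between genotypes at both stages.

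None of the 5 break formation genes passed at either stage. By number of unadjusted p under 0.05 there was 1 at GV, Mei4, at 1.39 and 1.3 CPM in control and 2.72 and 4.96 in knockout libraries (log2 difference 1.51 ± 0.61, adjusted p = 0.38), and 1 at MII, Rec114. Rec114, a SPO11 accessory protein, had 14 and 8 reads in MII control and 1 and 0 in MII knockout libraries (log2 difference -4.27 ± 1.36, adjusted p = 0.104); 26.9% of its exon bases are shared with Nptn. The methyltransferase Prdm9 was at 0.0928 and 0.251 CPM in GV control and at 0.85 and 0.661 CPM in GV knockout libraries, from 2 to 16 reads in a library, and did not pass (log2 difference 2.09 ± 1.57, adjusted p = 0.764). The BRCA mediators, which act in homologous recombination repair, also held no call. Brca2 was at 213 and 134 CPM in control and at 291 and 198 in GV knockout libraries, and at 354 and 358 against 287 and 380 at MII. At GV the 4 log2 differences were 0.29 to 0.64, with Brca1 and Palb2 at 0.64 and separate libraries for both, and at MII they were -0.10 to 0.05 with overlapping libraries for all 4.

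**Figure D3:**
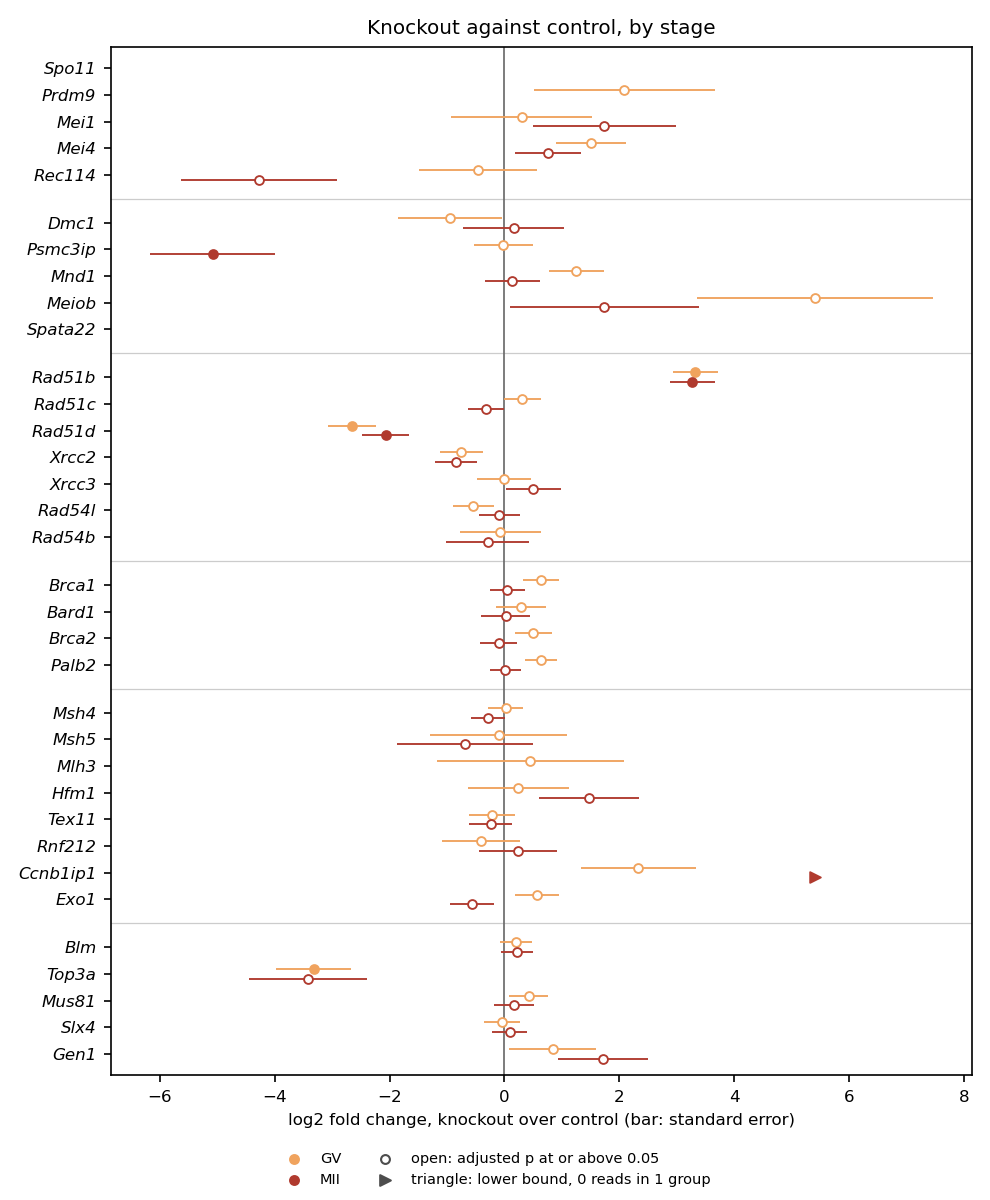
Log2 fold change of knockout over control for the 32 tested genes at GV and at MII, with bars of 1 standard error from the fit over 8 libraries. Filled points have an adjusted p under 0.05, and a triangle marks a lower bound where 1 group had 0 reads. The GV values of the BRCA mediators all lie above 0, and their MII values all lie near 0.

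The 47 other listed genes of the pathway, among them the RPA subunits and the MRE11 complex, were described in the same way, and 44 were tested. At GV, 0 of 44 passed by edgeR's test, beside 0.989% of all tested genes, with 8 at an unadjusted p under 0.05, beside 10.8%. At MII, 1 passed (2.27%, beside 5.14% of all tested genes). It was Rpa3, the smallest subunit of the single-strand binding protein RPA, with means of 427 CPM in control and 144 CPM in knockout oocytes (log2 difference -1.56 ± 0.38, edgeR's adjusted p = 0.0421). The median log2 difference of these genes was 0.17 at GV and 0.09 at MII.

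The difference of the knockout effect between the stages was tested for each gene, since a call at only one stage does not show that the stages differ. By edgeR's test 0 of the 32 genes passed, beside 0.0835% of all tested genes (1 higher, 0.00642%, and 12 lower, 0.0771%). Beside 11.5% of all tested genes, 3 members were at an unadjusted p under 0.05, Psmc3ip, Ccnb1ip1 and Rec114. DESeq2 called 2 of them, Psmc3ip with a log2 difference of -5.36 and Ccnb1ip1 with 7.13, and edgeR without the filter on low counts called the same 2. For Rad51b and Rad51d the knockout effects at GV and MII, 3.32 and 3.27 and -2.65 and -2.07, were not called different.

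The change from GV to MII was compared within each genotype. In control oocytes 8 of the 32 genes rose, where 21.2% of all tested genes rose, and 9 fell, where 27.9% fell. In knockout oocytes 6 rose, beside 19.9% of all tested genes, and 12 fell, beside 29.1%. The share called in either direction was 53.1% of the members in control, beside 49.1% of all genes, and 56.2% in knockout, beside 49%, so the members changed about as often as the rest. The GV and MII libraries did not overlap for 23 of the 32 in control, beside 77.9% of all genes, and for 24 in knockout, beside 76.9%. At an unadjusted p under 0.05 there were 21 in control, beside 56.2% of all genes, and 19 in knockout, beside 56.1%. Across all tested genes the median log2 change was -0.20 in control and -0.33 in knockout oocytes. Mei4, Palb2, Msh4, Tex11, Blm and Slx4 rose in both genotypes, and Psmc3ip, Rad51b, Xrcc3, Rad54b, Exo1, Top3a and Mus81 fell in both. The share of all tested genes called in both genotypes was not computed, so how often genes in general are shared is not known here. The comparisons in control and in knockout oocytes share no library with each other, but levels are relative to the other reads of a library. A rise at MII may be a gain of a transcript, a loss of others or another change, which cannot be told apart here. The calls in one genotype only (Rad51d, Brca1, Brca2 and Ccnb1ip1 in control, and Prdm9, Rec114, Mnd1, Rad51c and Mlh3 in knockout) do not by themselves show a difference between genotypes. The test of that difference is the same contrast as the one between stages, in which edgeR called 0 of the 32 members, and DESeq2 and edgeR without the low count filter each called Psmc3ip and Ccnb1ip1.

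Psmc3ip, Top3a and Mus81 were among the genes with the largest falls in both genotypes. Psmc3ip fell from 94.4 and 61.1 CPM to 0.231 and 1.19 CPM in control oocytes (log2 change -6.74 ± 0.67, edgeR's adjusted p = 4.75e-05), with -8.45 without MII control library b and -6.07 without library a. In knockout oocytes it had 1538 and 1616 reads at GV and 1 and 0 reads at MII (log2 change -11.81 ± 0.95, adjusted p = 1.21e-05), a ratio of summed reads of 4525 with an exact 95% interval from 812 to 178777. It was -13.90 without MII knockout library 1 and -11.12 without library 2. Its partner Mnd1 was called lower in knockout oocytes only (log2 change -2.22 ± 0.49, edgeR's adjusted p = 0.00402), with -1.11 ± 0.48 in control. Dmc1, the recombinase they assist, was not called in either genotype (0.35 ± 0.89 and 1.46 ± 0.91).

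Within the dissolution and resolution group, Slx4 and Blm rose and Mus81 and Top3a fell in both genotypes. Mus81 fell from 283 and 225 CPM to 5.96 and 4.86 CPM in control (log2 change -5.55 ± 0.41, edgeR's adjusted p = 1.46e-05) and from 383 and 299 to 4.11 and 8.12 CPM in knockout oocytes (-5.81 ± 0.42, adjusted p = 7.41e-06). Slx4, the scaffold that binds MUS81, rose from 23.3 and 21.8 to 58.5 and 56.2 CPM in control (1.35 ± 0.32, adjusted p = 0.00566) and from 17.6 and 26.1 to 52.9 and 69.2 CPM in knockout oocytes (1.48 ± 0.32, adjusted p = 0.00336). Top3a fell from 37.2 and 54.8 to 0.154 and 0.628 CPM in control (-6.84 ± 0.78, adjusted p = 9.45e-05), and in knockout oocytes from 63 and 136 reads to 2 and 0 (-6.93 ± 0.93, adjusted p = 0.000215, a ratio of 143 with an exact 95% interval from 39 to 1187). The Top3a change was -8.26 without MII control library b and -6.23 without library a, and in knockout oocytes -9.84 without MII knockout library 1 and -6.16 without library 2. Blm, which works with TOP3A, rose from 23.7 and 33.4 to 76.6 and 78.2 CPM in control (1.44 ± 0.29, adjusted p = 0.00219) and from 33.7 and 32 to 82.2 and 97.5 CPM in knockout oocytes (1.45 ± 0.29, adjusted p = 0.00201). In both pairs the partners moved in opposite directions in both genotypes. The GV and MII libraries did not overlap for any of the 4 genes, nor for 77.9% of all tested genes in control and 76.9% in knockout oocytes.

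The filament accessory and RAD54 genes either fell or were not called. Xrcc3 fell from 92.8 and 71.7 to 6.31 and 5.48 CPM in control (log2 change -3.80 ± 0.53, edgeR's adjusted p = 0.000271) and from 76.1 and 86.7 to 12.9 and 3.74 CPM in knockout oocytes (-3.28 ± 0.51, adjusted p = 0.00052). Rad54b, of which 35.9% of the exon bases are shared with Fsbp or the antisense gene Gm11832, fell from 17.7 and 18.5 to 1.27 and 4.1 CPM in control (-2.75 ± 0.75, adjusted p = 0.0122; -2.19 and 0.0574 without MII control library a, -3.91 and 0.00758 without library b) and by 2.96 ± 0.76 in knockout oocytes (adjusted p = 0.00871). Rad51b, which differed in level between the genotypes, fell by a similar log2 amount in each, -1.52 ± 0.38 in control (adjusted p = 0.00743, and 0.0504 without MII control library a) and -1.56 ± 0.36 in knockout (adjusted p = 0.00511). Rad51d had -1.23 ± 0.40 in control (adjusted p = 0.0272, up to 0.137 without GV control library 1, GV control library 2 or MII control library b) and -0.64 ± 0.40 in knockout (adjusted p = 0.208). Rad51c had -0.47 ± 0.32 in control and -1.09 ± 0.32 in knockout oocytes (adjusted p = 0.0169, up to 0.0845 without GV knockout library 1, GV knockout library 2 or MII knockout library 1). Xrcc2 and Rad54l were not called in either genotype.

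The 4 BRCA mediators all had positive log2 changes in both genotypes. Palb2 rose from 18.9 and 23.6 to 89.4 and 113 CPM in control (log2 change 2.25 ± 0.29, edgeR's adjusted p = 0.000168) and from 34.2 and 32 to 94.2 and 109 CPM in knockout oocytes (1.62 ± 0.28, adjusted p = 0.000955). Brca2 rose in control oocytes (1.04 ± 0.32, adjusted p = 0.0216, up to 0.157 without GV control library 2, MII control library a or MII control library b) and had 0.45 ± 0.32 in knockout oocytes. Brca1 had 0.83 ± 0.31 in control oocytes (adjusted p = 0.0465), a call that held in 1 of the 8 leave-one-out fits, the one without GV control library 2, with an adjusted p of up to 0.308 in the others, and 0.24 ± 0.31 in knockout oocytes. Bard1, the partner of BRCA1, did not pass, with 1.09 ± 0.43 and 0.82 ± 0.43.

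Of the crossover genes, the MSH4 and TEX11 transcripts rose and Exo1 fell in both genotypes. Tex11, an X-linked gene, rose from 3.53 and 6.12 to 39.7 and 35.9 CPM in control (log2 change 2.97 ± 0.41, edgeR's adjusted p = 0.000282) and from 4.59 and 3.72 to 28.7 and 35.4 CPM in knockout oocytes (2.95 ± 0.42, adjusted p = 0.00028). Msh4 rose by 2.13 ± 0.31 in control (adjusted p = 0.00036) and by 1.82 ± 0.31 in knockout oocytes (adjusted p = 0.000824), while Msh5, whose protein is the partner of MSH4, had 0.75 ± 1.18 and 0.16 ± 1.19 at 11 to 91 reads a library and did not pass. Exo1 changed by -1.77 ± 0.39 in control and by -2.90 ± 0.41 in knockout oocytes. Ccnb1ip1 had 18 and 56 reads in GV control and 0 and 0 in MII control libraries, at least 14.8-fold lower at MII (adjusted p = 0.00368; at least 7.79-fold from GV control library 1 alone and 21.9-fold from library 2 alone), and in knockout oocytes it had -0.82 ± 0.95 and was not called. Mlh3, a crossover nuclease gene, had 12 and 23 reads in GV knockout and 0 in both MII knockout libraries, at least 8.04-fold lower (adjusted p = 0.0303, up to 0.119 in the 6 of 8 leave-one-out fits that lost it, those without GV control library 1 or 2 or any knockout library). Hfm1 and Rnf212 were not called.

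Among the break formation genes, Mei4 rose from 1.39 and 1.3 to 5.96 and 17.1 CPM in control (log2 change 3.10 ± 0.63, edgeR's adjusted p = 0.00264, and 2.06 without MII control library b) and from 2.72 and 4.96 to 20.7 and 18.5 CPM in knockout oocytes (2.35 ± 0.61, adjusted p = 0.00922, and 0.0974 without GV knockout library 1). MEI4 and REC114 act together with SPO11, and Rec114 did not rise with Mei4. Rec114 had 63 and 48 reads in GV control and 14 and 8 in MII control libraries (-2.61 ± 1.09, adjusted p = 0.0709), and 29 and 47 against 1 and 0 in knockout oocytes (-6.42 ± 1.41, adjusted p = 0.0039, ratio of summed reads 109 with an exact 95% interval from 19 to 4362, and -8.49 without MII knockout library 1 or -5.70 without library 2). Prdm9 had 15 and 16 reads in GV knockout and 0 and 1 in MII knockout libraries (-5.08 ± 1.87, adjusted p = 0.048), a call lost in all 8 leave-one-out fits, where the log2 change was -7.29 to -4.20 and the adjusted p 0.0587 to 0.233. Mei1 was not called in either genotype.

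**Figure D4:**
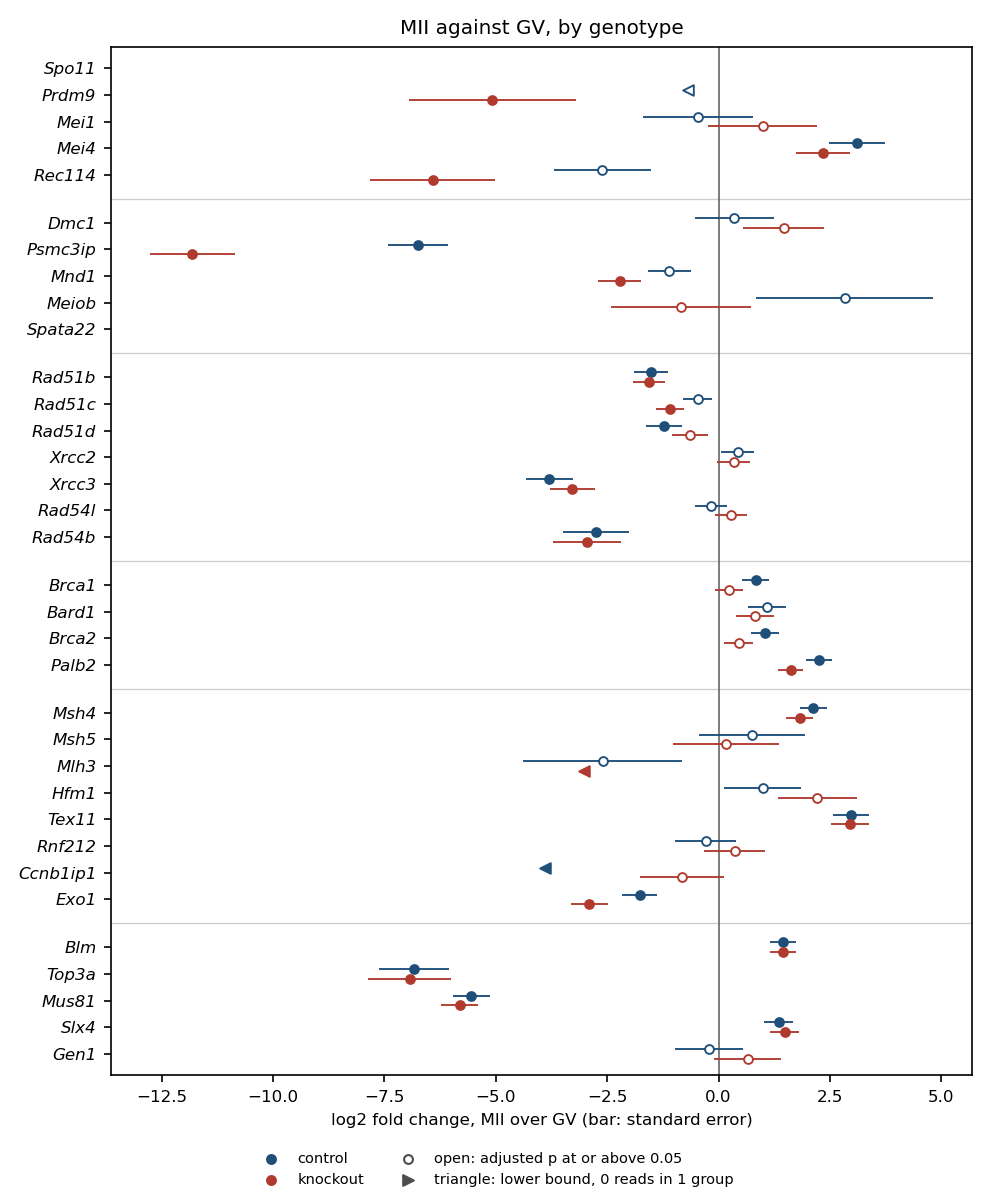
Log2 fold change of MII over GV for the 32 tested genes in control and in knockout oocytes, with bars of 1 standard error. Filled points have an adjusted p under 0.05, and a triangle marks a lower bound where 1 group had 0 reads. Mus81, Top3a and Psmc3ip lie far to the left in both genotypes, while Slx4, Blm, Palb2, Msh4, Tex11 and Mei4 lie to the right in both.

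The other listed pathway genes changed in similar proportions. In control oocytes 11 of 44 rose, beside 21.2% of all tested genes, and 14 fell, beside 27.9%. In knockout oocytes 10 rose, beside 19.9%, and 14 fell, beside 29.1%. Their median log2 changes were -0.39 (control) and -0.34 (knockout), and the medians of the 32 tested members were -0.26 and 0.20.

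Mei1, Dmc1, Meiob, Xrcc2, Rad54l, Bard1, Msh5, Hfm1, Rnf212 and Gen1 were tested and called in none of the 5 tests. The share of all tested genes called in none of them was not computed. Some of these genes rest on few reads, with totals over all libraries of 97 for Meiob, 185 for Mei1 and 273 for Msh5, so the lack of a call does not show a steady level.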

How the data were processed

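RNA-seq read counts per gene in 8 mouse oocyte libraries were used as the authors deposited them. Per the submitters' processing notes, reads were processed with Bowtie2, HTSeq and edgeR on mm10; for versions, annotation release and strand setting the sources used here give nothing. Of the 54838 Ensembl gene IDs, 54809 were named and placed with GENCODE M21 (29 were not). Entries that name no gene took 22 to 35.1% of all reads in a library and were left out. 0 value columns went unused. The 2 control MII columns carry the same heading, so those libraries are called a and b, with no replicate number.

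The count table was fitted whole with edgeR 4.0.16 (R 4.3.3): filterByExpr (15572 genes tested), TMM scaling, 1 term per group over 8 libraries, quasi-likelihood F-tests and Benjamini-Hochberg adjustment within each of 5 contrasts, threshold 0.05. The biological coefficient of variation was 0.507, with 4 residual degrees of freedom. A standard error is the log2 change divided by the square root of F. DESeq2 1.42.0, other scalings and filters, and leaving out each library were alternatives. Fits were also run on simulated counts, with changes placed only in genes above a minimum level. That run does not cover genes with few reads, and its outcome is not given here. CPM is relative to reads in tested genes, TMM scaled.

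All 34 members are accounted for. Full values are given for those called between genotypes or between stages, for the 6 largest rises and 6 largest falls called in each maturation contrast, and for the most abundant of each role group. The members and lists were chosen with earlier results of these data known. Exact 95% intervals of read ratios cover counting error only. Where a group is left with 1 library, that library is assumed to vary like the other groups.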

Additional observations from a re-analysis of the deposited data

How the results depend on the processing

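Between genotypes at GV, leaving out 1 library gave 0 to 1 members higher and 0 to 2 lower, and library totals as the only scaling gave 1 lower. At MII, leaving out 1 library gave 2 higher in every fit and 0 to 2 lower, and a filter of a mean of at least 5 CPM gave 1 higher, because Ccnb1ip1 was then not tested. DESeq2 and no low count filter each called 3 lower at MII, with Top3a added, and each called 2 members in the difference between stages; the cause was not tested. Maturation counts with 1 library left out were 6 to 7 higher and 8 to 10 lower in control, and 5 to 7 higher and 9 to 11 lower in knockout oocytes. Psmc3ip at GV, near 0, changed sign to 0.34 without control GV library 1, to 0.17 without knockout GV library 2 and to 0.00 with the replicate block; it was -0.29 to 0.34 over the leave-one-out fits. Of 470 values for the members described in full, 426 kept direction and side of the threshold, 38 lost the call, 3 gained it and 3 changed sign. Replicate numbers did not pair the libraries (correlations of same-numbered deviations 0.119, 0.0127 and -0.02). With the replicate number as a block, the 6 numbered libraries gave 1 member higher and 2 lower at GV, and 6 higher and 12 lower for maturation in the knockout, against 1, 2, 7 and 12 without it (a fit chosen after seeing the data). No paired analysis was possible for contrasts with control MII because its columns carry no distinguishing number. Depth limits Prdm9, Rec114, Meiob, Mlh3 and, at MII, Psmc3ip and Top3a most, since these values rest on few reads.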
